A study of Homo sapiens with 6 samples.

Results

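A set of 40 genes of the keratin filaments and of the cell-cell and cell-substrate junctions of epithelia were followed in RNA on polysomes, the mRNAs loaded with several ribosomes, of 3 established human breast cancer cell lines. They were chosen by symbol, as keratins, desmosomal, adherens junction, tight junction and hemidesmosome genes and epithelial regulators, and all 40 were found among the 30726 gene symbols of the deposited table. No measured value entered that rule, although the genes were put together with earlier results of these data known. The lines were SUM1315, labelled triple negative, SKBR3, labelled luminal and HER2-positive, and T47D, labelled luminal A, all wild type. Each gave 1 library at 21% oxygen (normoxia) and 1 library at 1% oxygen for 8 hours (hypoxia), 6 libraries in all. All cells received cycloheximide, which holds ribosomes on mRNA, before lysates of equal protein were separated on sucrose gradients. Each line was grown in a medium of its own: the SUM1315 medium held insulin and EGF, the T47D medium held insulin, and neither is named for SKBR3. Line, subtype and medium therefore cannot be told apart.

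Keratins are intermediate filament proteins that pair as a type I and a type II chain, and simple epithelia, luminal mammary cells among them, build theirs from KRT8 and KRT18 with KRT19 and KRT7. Desmosomes anchor these filaments at the cell border through desmosomal cadherins, armadillo proteins and the linker desmoplakin. Adherens junctions tie cadherins to actin through the catenins, hemidesmosomes tie keratins to the basement membrane through integrin alpha6 beta4 and plectin, and tight junctions seal the space between cells with claudins and occludin.

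Values were taken as RPKM, read numbers divided by transcript length and by library size, so that levels of different genes can be set side by side per length. They are shares of the sequenced polysome RNA: fewer cells and less RNA per cell cannot be told apart, nor can mRNA amount and ribosome loading. From the spacing of the low values, 1 RPKM on a transcript of 1 kb stood for 21.7 to 33.4 reads or read pairs, and 3 reads for 0.0897 to 0.138 RPKM. The lines carried the markers of their labels in part. ERBB2 was at 615 and 743 RPKM in SKBR3 and at 5.34 to 8.76 in the other lines. The luminal marker ESR1 was at 4.54 to 5.18 in T47D and under 0.05 in the other lines. PGR was at 9.94 or more in T47D, at 0 in both SKBR3 libraries and under 0.05 in SUM1315. GATA3 was at 8.89 and 6.95 in SKBR3, against 108 and 143 in T47D and 1.79 and 3.36 in SUM1315. FOXA1 was at 47.2 and 27.2 in SKBR3, at 55.5 and 39.5 in T47D and under 1 in SUM1315. VIM, a mesenchymal marker, was at 407 and 1161 in SUM1315. Of the markers of leukocytes, fibroblasts and endothelium, PTPRC, CD3E, DCN, LUM and PECAM1 were at 0.248 RPKM or less in each of the 6 libraries, while CD68 stood at 44.3 and 45.6 in SUM1315. The oxygen response genes VEGFA, SLC2A1, BNIP3 and PDK1 were each higher at 1% oxygen in 3 of 3 lines.

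In SUM1315 the polysomes carried little of this epithelial programme. There 20 of the 40 genes were under 1 RPKM in both libraries, against 7 in SKBR3 and 8 in T47D. Over all 30726 genes these counts were 19726 in SUM1315, 20571 in SKBR3 and 20079 in T47D. Of the 27 genes at 1 RPKM or more in all 4 luminal libraries, 12 (44.4%) were under 1 RPKM in both SUM1315 libraries, where the share over all genes was 6.98% (576 of 8258). The 5 highest of the 40 in SUM1315 by mean RPKM of its 2 libraries were KRT80 at 12.9, PLEC at 8.00, CTNNA1 at 6.41, PKP4 at 6.003 and CTNNB1 at 4.53. In SKBR3 they were all keratins, KRT19 at 1219, KRT81 at 686, KRT18 at 511, KRT8 at 255 and KRT7 at 211. T47D had claudins among them, with CLDN3 at 504, KRT19 at 447, CLDN1 at 284, KRT18 at 266 and KRT8 at 110.0.

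**Figure D1:**
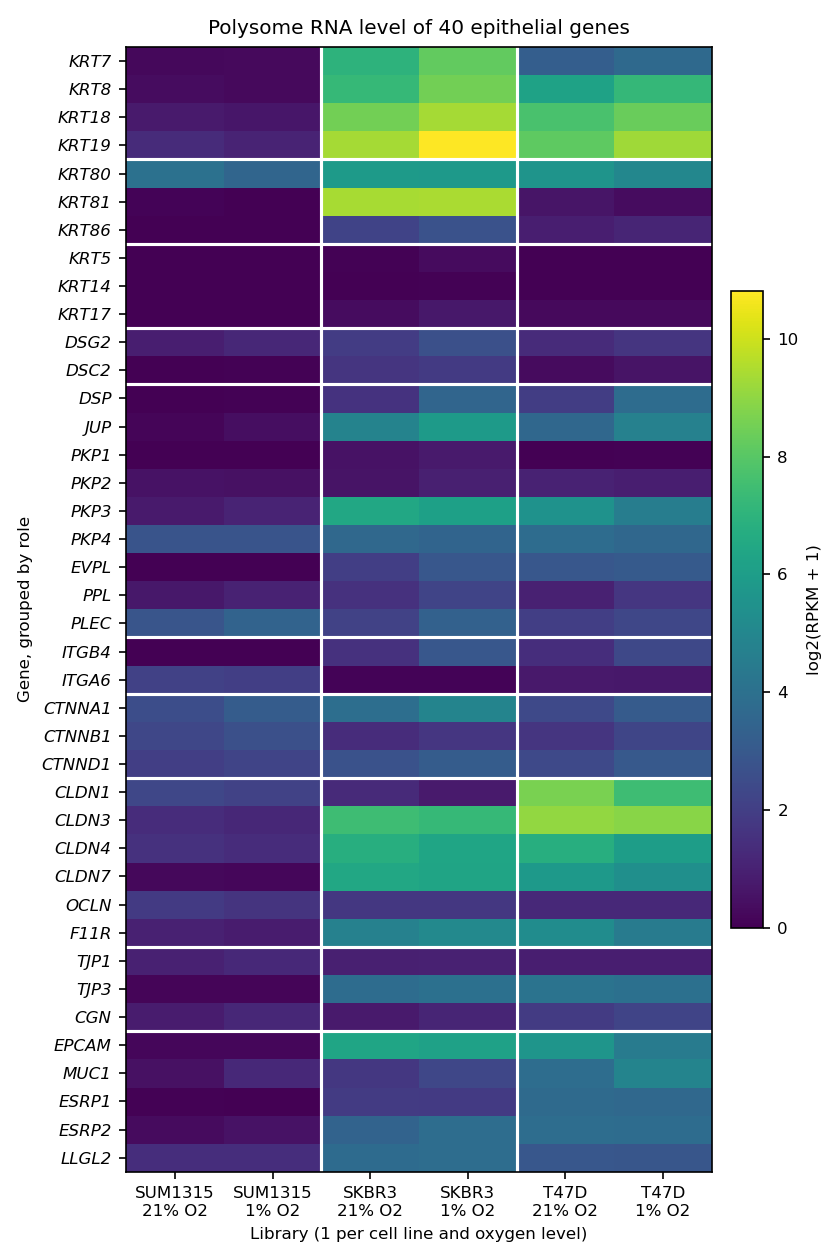
Heat map of log2(RPKM + 1) for the 40 genes (rows, grouped by role) in the 6 libraries (columns, by line and oxygen level). Brighter colours stand for higher values. The simple keratins, CLDN3, CLDN4 and CLDN7 are brighter in SKBR3 and T47D than in SUM1315, where 20 genes are under 1 RPKM in both libraries. CLDN1 is bright in T47D only.

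SUM1315 was then compared with the mean of the luminal lines by limma on log2(RPKM + 1), with oxygen level as a block, in genes that reached 1 RPKM in 2 or more libraries, with Benjamini-Hochberg adjusted p under 0.05 as the threshold. The 2 libraries of a line differ in oxygen and no line was replicated, so that the test compares these lines and not subtypes. Of 12312 genes tested, 44.0% were higher and 30.4% lower in SUM1315. Of the 40 genes 34 were tested, and 30 were lower, 3 were higher and OCLN, which encodes occludin, passed in neither direction. Of the 30, however, 15 were under 1 RPKM in both SUM1315 libraries, as ITGA6 was in all luminal libraries among the 3. Those entered through the group in which they were high and had to differ, so the count is a description and p-values are given only for genes at 1 RPKM in a library of the lower group. The median difference over all genes tested was 0.21 on the log2 scale. Centring each library on its median moved the split over all genes from 5423 higher and 3743 lower to 4176 and 4752.

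**Figure D2:**
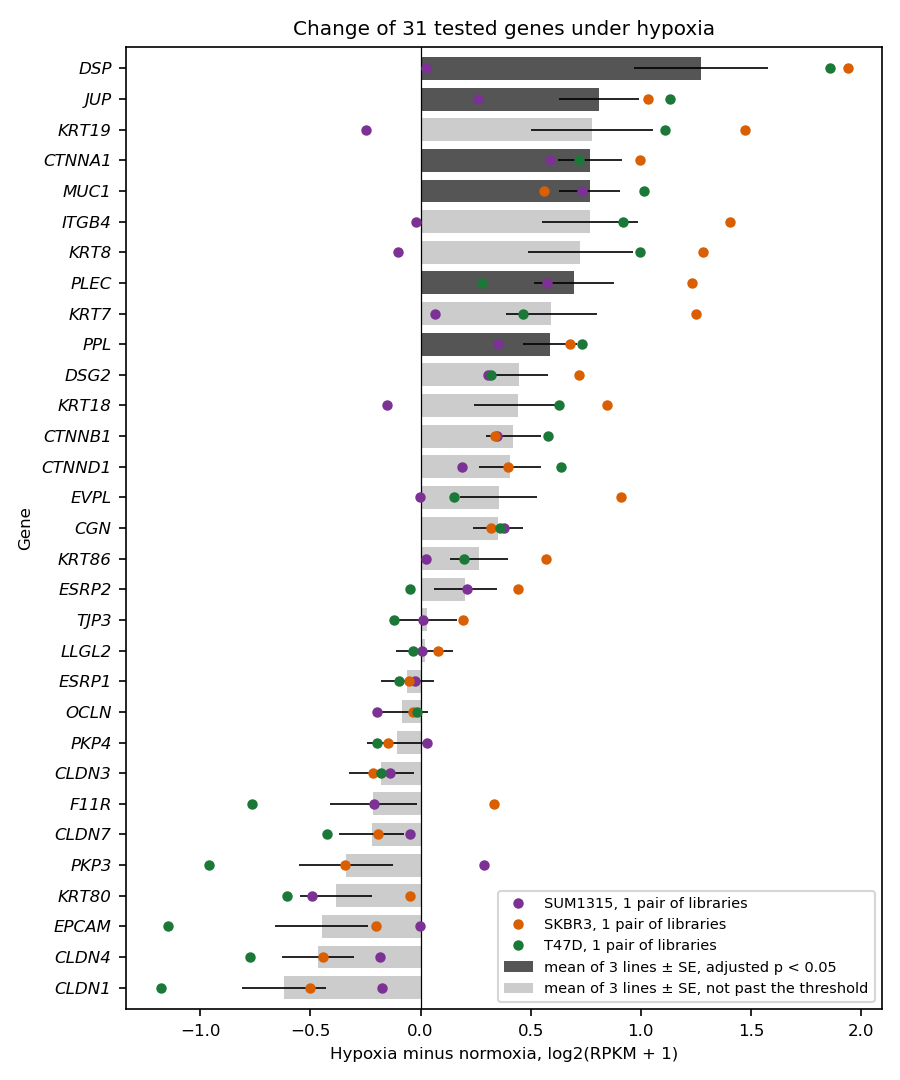
Log2 change at 1% against 21% oxygen of the 31 genes tested, with bars for the mean over the 3 lines, error bars for the limma standard error and points for the single lines. DSP has the longest bar, at 1.27, and the 6 genes that passed, DSP, JUP, CTNNA1, MUC1, PLEC and PPL, all lie above 0, whereas the claudins lie below 0.

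The effect of oxygen was tested by limma over the 3 lines, with the line as a block, after a filter that kept a gene if 3 or more libraries reached 1 RPKM. Polysome RNA of 6 of the 40 genes rose at 1% oxygen: DSP and JUP of the desmosome, the plakins PPL and PLEC, the adherens junction catenin CTNNA1 and the mucin MUC1. The test covered 31 of the 40 genes and 10253 genes in all. Over all genes 4.12% were higher and 2.26% lower, and of the 31 genes 6 (19.4%) were higher and 0 lower, with 14 higher and 3 lower at an unadjusted p under 0.05, where all genes gave 2692 of 10253 in either direction. Their median change was 0.35 on the log2 scale against -0.01 over all genes, and 20 of 31 (64.5%) lay above 0 against 49.2% of all genes. The 9 genes not tested were KRT5, KRT14, KRT17, KRT81, PKP1, PKP2, DSC2, TJP1 and ITGA6.

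These calls rest on few libraries. With a line left out, the filter became 1 RPKM in at least 2 of the libraries left, so the genes tested changed too. Without SKBR3 CTNNA1 (adjusted p = 0.0477) and MUC1 (0.0260) remained in limma's test, and adjusted p was 0.141 for DSP, 0.0908 for JUP, 0.145 for PLEC and 0.0711 for PPL. Without T47D PLEC remained (0.0403 by limma), and adjusted p was 0.0512 for CTNNA1, 0.0607 for MUC1, 0.127 for DSP, 0.152 for JUP and 0.137 for PPL. With SUM1315 left out, 10 of 33 tested genes were higher and 1 was lower by limma, against 4.79% higher and 2.00% lower among all 10877 genes then tested. That fit on SKBR3 and T47D has 1 residual degree of freedom beside 47.2 prior ones, so that its errors come almost wholly from the spread of other genes. The 10 were DSP, KRT19, ITGB4, KRT8, JUP, CTNNA1, KRT7, MUC1, PLEC and PPL, and the gene that was lower was CLDN1.

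Among the simple keratins, KRT19, a type I keratin, stood at 1.48 RPKM in normoxia and 1.09 in hypoxia in SUM1315, at 645 and 1793 in SKBR3, and at 283 and 611 in T47D. KRT8, the type II partner of KRT18, was at 0.288 and 0.198 in SUM1315, at 148 and 362 in SKBR3, and at 73.1 and 147 in T47D. For KRT18 the levels were 0.736 and 0.562 in SUM1315, 365 and 656 in SKBR3, and 209 and 324 in T47D. Hypoxia was thus the higher condition in both luminal lines for each of the 3 genes, by 2.78-fold and 2.16-fold for KRT19 in SKBR3 and T47D, and the lower condition in SUM1315, at levels near 1 RPKM or below it. KRT7, another type II simple keratin, separated the luminal lines, at 125 and 298.1 RPKM in SKBR3 but 8.27 and 11.8 in T47D, and was at 0.173 and 0.227 in SUM1315.

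None of the 4 simple keratins passed over the 3 lines. The limma change of KRT19 was 0.78 on the log2 scale (95% confidence interval 0.16 to 1.39, adjusted p = 0.114), that of KRT8 0.73 ± 0.24 (SE, adjusted p = 0.0920), that of KRT7 0.59 ± 0.21 (0.110) and that of KRT18 0.44 ± 0.20 (0.195). On SKBR3 and T47D alone KRT19 rose by 1.29 ± 0.24 (adjusted p = 0.000219), KRT8 by 1.14 ± 0.25 (0.00254) and KRT7 by 0.86 ± 0.26 (0.0322), while KRT18 had 0.74 ± 0.25 (0.0592). The summed RPKM of the 4 genes was 1283 at 21% and 3110.0 at 1% oxygen in SKBR3, 573 and 1093 in T47D, and 2.68 and 2.08 in SUM1315. All 4 were lower in SUM1315 than in the luminal lines, by -8.20 ± 0.32 for KRT19, -7.76 ± 0.22 for KRT18, -6.97 ± 0.27 for KRT8 and -5.26 ± 0.23 for KRT7 on the log2 scale (limma SE), with adjusted p = 4.34e-07 for KRT19, the one of the 4 that reached 1 RPKM in SUM1315. KRT7 was 4.15 ± 0.27 higher in SKBR3 than in T47D (adjusted p = 1.24e-05).

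The KRT8 and KRT18 values carry a counting uncertainty. Of the 50-base windows of the GENCODE release 29 transcripts, 41.3% of those of KRT8 and 31.8% of those of KRT18 also occur in other genes, against 1.79% for KRT19, and KRT8 and KRT18 overlap on opposite strands. In the luminal libraries 27 KRT8 pseudogenes held 1.52% to 7.13% of the summed RPKM of gene and pseudogenes. In SUM1315, where KRT8 itself was under 1 RPKM, they held 92.6% to 95.2%.

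The other keratins had a pattern by line. KRT81, a hair-type keratin, stood at 671 and 702 RPKM in SKBR3, at 0.545 and 0.265 in T47D and at 0.0717 and 0 in SUM1315. It reached 1 RPKM in SKBR3 only, entered the line comparison through those libraries and so had to differ there. Its neighbour KRT86 was at 3.505 and 5.69 in SKBR3, at 0.900 and 1.18 in T47D and at 0 and 0.0187 in SUM1315. As 38.4% of the KRT81 windows are shared with KRT86, which also overlaps it, the level of KRT86 is uncertain. KRT80, an epithelial type II keratin, was the one keratin of the 40 genes above 2 RPKM in SUM1315, at 15.2 and 10.5, with 57.8 and 55.8 in SKBR3 and 47.8 and 31.1 in T47D. It was lower at 1% oxygen in 3 of 3 lines without passing the test (-0.38 ± 0.16 by limma, adjusted p = 0.173). The basal keratins KRT5, KRT14 and KRT17, which mark the basal layer of stratified and mammary epithelium, were at 0 in both libraries of SUM1315, the line labelled triple negative. In SKBR3 KRT5 was at 0.0579 and 0.254 RPKM, KRT14 at 0.0133 and 0.0481 and KRT17 at 0.280 and 0.628. In T47D KRT5 was at 0 in both libraries, KRT14 at 0 and 0.01996 and KRT17 at 0.221 and 0.195, so that none reached 1 RPKM in any library.

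**Figure D3:**
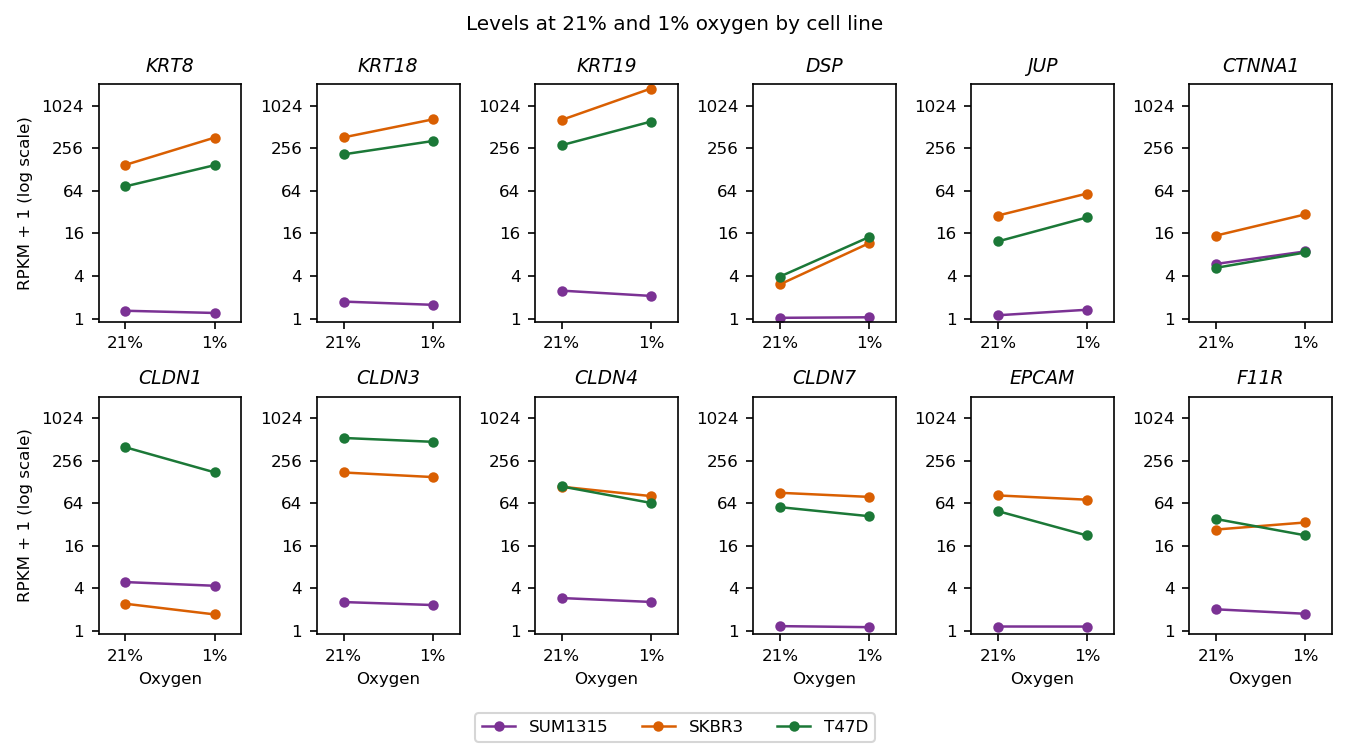
RPKM + 1 on a log scale at 21% and 1% oxygen for 12 genes, with 1 line and 1 colour per cell line. KRT8, KRT18, KRT19, DSP, JUP and CTNNA1 slope upward in SKBR3 and T47D, the claudins and EPCAM slope downward there, and F11R crosses, up in SKBR3 and down in T47D.

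Desmoplakin, encoded by DSP (chr6:7541575-7586717, plus strand, GRCh38), links the desmosomal plaque to keratin filaments. DSP was at 2.03 RPKM in normoxia and 10.6 in hypoxia in SKBR3 and at 2.91 and 13.2 in T47D, which is 5.23-fold and 4.53-fold. In SUM1315 it was at 0.0229 and 0.0407 RPKM, on about 4.88 and 8.77 reads. Both luminal hypoxia libraries thus lay above both luminal normoxia libraries, and the SUM1315 libraries lay near 0. Its limma change over the 3 lines was 1.27 ± 0.30 on the log2 scale (adjusted p = 0.0373), and on SKBR3 and T47D alone it was 1.90 ± 0.21 (2.19e-09). Robust moderation moved the adjusted p over the 3 lines to 0.134.

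Plakoglobin, encoded by JUP (chr17:41754604-41786931, minus strand), is the armadillo protein shared by desmosomes and adherens junctions. JUP stood at 0.112 and 0.331 RPKM in SUM1315, at 27.7 and 57.7 in SKBR3 and at 11.3 and 26.0 in T47D. Hypoxia was thus higher in each of the 3 lines, in SUM1315 on about 8.49 and 25.5 reads. JUP rose by 0.81 ± 0.18 (limma, adjusted p = 0.0317). None of the tested plakophilins, the other armadillo proteins of the plaque, passed. PKP3 was at 87.8 and 69.1 RPKM in SKBR3, at 45.2 and 22.8 in T47D and at 0.741 and 1.13 in SUM1315, a change of -0.34 ± 0.21 (adjusted p = 0.335 by limma). PKP4, which also occurs at adherens junctions, was at 5.93 and 6.07 RPKM in SUM1315, at 11.4 and 10.2 in SKBR3 and at 13.1 and 11.3 in T47D, with a change of -0.11 ± 0.14 (adjusted p = 0.652 by limma). PKP2 stayed low in every line, at 0.456 and 0.385 RPKM in SUM1315, 0.493 and 0.934 in SKBR3 and 1.04 and 0.884 in T47D. PKP1 was at 0 in both SUM1315 libraries, at 0.457 and 0.722 in SKBR3 and at 0 and 0.0435 in T47D.

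The plakins, large linkers between filaments and junctions, gave 2 of the 6 calls besides DSP. Periplakin, encoded by PPL (chr16:4882507-4960741, minus strand), was at 0.617 and 1.06 RPKM in SUM1315, at 1.88 and 3.61 in SKBR3 and at 0.985 and 2.30 in T47D. Plectin, encoded by PLEC (chr8:143915147-143976734, minus strand), was at 6.23 and 9.77 in SUM1315, at 3.32 and 9.15 in SKBR3 and at 2.998 and 3.86 in T47D. Both were higher at 1% oxygen in 3 of 3 lines, PPL by 0.59 ± 0.12 (adjusted p = 0.0256) and PLEC by 0.70 ± 0.18 (adjusted p = 0.0489) in limma's test. Envoplakin, the partner of periplakin, was not called: EVPL stood at 3.04 and 6.61 in SKBR3, at 6.56 and 7.39 in T47D and at 0.0188 and 0.0185 in SUM1315, with a change of 0.35 ± 0.17 (adjusted p = 0.224 by limma). PLEC was one of the 3 genes higher in SUM1315 than in the luminal lines, by 0.71 ± 0.20 (limma, adjusted p = 0.0126). That call was lost with libraries centred on their medians (0.45, adjusted p = 0.0883) and against SKBR3 alone (0.41, adjusted p = 0.143).

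Of the desmosomal cadherins, DSG2 was at 0.852 and 1.29 RPKM in SUM1315, at 2.83 and 5.30 in SKBR3 and at 1.53 and 2.15 in T47D. Hypoxia was higher in 3 of 3 lines, with a change of 0.45 ± 0.13 that did not pass (limma, adjusted p = 0.0671). DSC2 was on polysomes mainly of SKBR3, at 2.16 and 2.55 RPKM, with 0.239 and 0.482 in T47D and 0.0111 and 0.0436 in SUM1315. PKP3 was lower in SUM1315 than in the luminal lines by -4.73 ± 0.24 (limma, adjusted p = 1.33e-06) and DSG2 by -0.85 ± 0.14 (0.000658).

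In the hemidesmosome pair the 2 subunits were highest in different lines, with ITGA6 in T47D on about 53.1 and 48.0 reads. ITGB4, the integrin beta4 chain, was at 1.87 and 6.59 RPKM in SKBR3, at 1.68 and 4.07 in T47D and at 0.0136 and 0 in SUM1315. ITGA6, the alpha6 chain, was at 3.27 and 2.999 in SUM1315 but at 0.0802 and 0.0808 in SKBR3 and 0.649 and 0.637 in T47D. Both entered the line comparison only through the lines in which they were high, so that their differences between lines are given as levels with no test. ITGB4 was 3.52-fold and 2.42-fold higher at 1% oxygen in SKBR3 and T47D. Its limma change was 0.77 ± 0.22 over the 3 lines (adjusted p = 0.0634) and 1.16 ± 0.19 over the luminal lines alone (adjusted p = 3.35e-05), with 1.75 and 0 reads behind the SUM1315 values.

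All 3 catenin genes were above 1 RPKM in each of the 6 libraries. CTNNA1 (chr5:138610967-138935034, plus strand), which encodes alpha-catenin and ties beta-catenin to actin, was at 4.92 and 7.90 RPKM in SUM1315, at 13.9 and 28.7 in SKBR3 and at 4.22 and 7.59 in T47D. Its folds of 1.61, 2.07 and 1.80 were close between the lines, and it rose by 0.77 ± 0.14 (limma, adjusted p = 0.0178). CTNNB1, which encodes beta-catenin, was at 3.87 and 5.19 in SUM1315, at 1.59 and 2.27 in SKBR3 and at 2.22 and 3.80 in T47D. CTNND1, which encodes the cadherin-binding p120 catenin, was at 3.06 and 3.62 in SUM1315, at 5.69 and 7.80 in SKBR3 and at 4.28 and 7.21 in T47D. Hypoxia was higher in 3 of 3 lines for each, but neither passed limma's test, with 0.42 ± 0.13 (adjusted p = 0.0716) for CTNNB1 and 0.41 ± 0.14 (adjusted p = 0.105) for CTNND1. CTNNB1 was the third gene higher in SUM1315 than in the luminal lines, by 0.70 ± 0.13 (adjusted p = 0.00149 by limma).

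The cadherin they bind differed between the lines. CDH1, which encodes E-cadherin and was not one of the 40, was at 6.12 and 10.8 RPKM in T47D, at 0.0147 and 0 in SKBR3 and at 0.0227 and 0.0372 in SUM1315. SKBR3 therefore carried high levels of the simple keratins, plakoglobin, CLDN3, CLDN4 and CLDN7 with CDH1 near 0.

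The tight junction membrane genes had mean changes below 0, as KRT80 did and the 4 simple keratins did not. They were CLDN1, CLDN3, CLDN4, CLDN7, OCLN and F11R, with a median of -0.22 on the log2 scale, and 0 of 6 passed limma's test over the 3 lines, with CLDN1 and CLDN4 at an unadjusted p under 0.05. CLDN1 is a claudin of the tight junction strand. It was at 395 and 174 RPKM in T47D, at 3.90 and 3.34 in SUM1315 and at 1.42 and 0.708 in SKBR3. Hypoxia was lower in 3 of 3 lines, at 0.440 of the normoxia value in T47D, with a limma change of -0.62 ± 0.19 (95% confidence interval -1.04 to -0.19, adjusted p = 0.0781). On SKBR3 and T47D alone the change of CLDN1 passed, at -0.84 ± 0.25 (adjusted p = 0.0284 by limma).

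Of the 40 genes CLDN1 was also the furthest below 0 between the luminal lines, at -7.02 ± 0.24 in SKBR3 against T47D (limma, adjusted p = 7.87e-07). Its difference between SUM1315 and the luminal mean, -2.33 ± 0.21, therefore came from T47D: against SKBR3 alone SUM1315 was higher by 1.18 (limma, adjusted p = 0.00280). CLDN3, another strand claudin, was at 535 and 472 RPKM in T47D, at 173 and 149 in SKBR3 and at 1.56 and 1.32 in SUM1315. CLDN4 was at 109 and 63.6 in T47D, at 109 and 79.7 in SKBR3 and at 1.91 and 1.57 in SUM1315, with a change of -0.47 ± 0.16 (limma, adjusted p = 0.109). CLDN7 was at 55.3 and 40.9 in T47D, at 88.9 and 77.6 in SKBR3 and at 0.166 and 0.128 in SUM1315. Each of the 4 claudins was lower at 1% oxygen in 3 of 3 lines, CLDN7 in SUM1315 on only about 5.57 and 4.33 reads. Their summed RPKM was 1095 in normoxia and 750.3 in hypoxia in T47D, 372 and 307 in SKBR3, and 7.53 and 6.36 in SUM1315, whereas the simple keratin sum of the same luminal libraries was higher at 1% oxygen.

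OCLN was at 2.58 and 2.12 in SUM1315, at 2.41 and 2.33 in SKBR3 and at 1.38 and 1.35 in T47D, with an oxygen change of -0.08 ± 0.12 (adjusted p = 0.681 by limma). It was higher in SKBR3 than in T47D by 0.51 ± 0.14 (adjusted p = 0.0141 by limma), a call lost without the SKBR3 hypoxia library (0.0684) and without either T47D library (0.0668 and 0.125). F11R, which encodes the junctional adhesion molecule JAM-A, was at 26.1 and 33.2 in SKBR3, at 37.2 and 21.5 in T47D and at 1.02 and 0.745 in SUM1315. Of its windows 39.0% also occur in other annotated genes. Of the scaffolds beneath the strand, TJP3 was at 13.0 and 15.0 in SKBR3, at 16.2 and 14.8 in T47D and at 0.0930 and 0.103 in SUM1315. CGN, which encodes cingulin, was at 0.773 and 1.305 in SUM1315, at 0.719 and 1.14 in SKBR3 and at 2.65 and 3.69 in T47D, higher in 3 of 3 lines with 0.35 ± 0.11 (limma, adjusted p = 0.0846). TJP1, which encodes the scaffold ZO-1, was at 0.977 and 1.34 RPKM in SUM1315, at 0.957 and 0.968 in SKBR3 and at 0.872 and 0.891 in T47D.

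Among the surface proteins and regulators 1 of 5 passed. MUC1 (chr1:155185824-155192916, minus strand), a transmembrane mucin of the apical surface, was at 0.420 and 1.36 RPKM in SUM1315, at 2.33 and 3.91 in SKBR3 and at 13.6 and 28.4 in T47D. Hypoxia was higher in each line, and MUC1 rose by 0.77 ± 0.14 (limma, adjusted p = 0.0149). EPCAM, an epithelial adhesion molecule, was at 48.4 and 21.4 in T47D, at 81.4 and 70.8 in SKBR3 and at 0.152 and 0.150 in SUM1315, with a change of -0.45 ± 0.21 (adjusted p = 0.205 by limma). The epithelial splicing factor ESRP1 was at 0.0378 and 0.0186 in SUM1315, at 2.72 and 2.59 in SKBR3 and at 12.4 and 11.5 in T47D (-0.06 ± 0.12, adjusted p = 0.781 by limma). Its paralog ESRP2 was at 0.249 and 0.447 in SUM1315, at 9.83 and 13.7 in SKBR3 and at 13.4 and 13.0 in T47D (0.20 ± 0.14, adjusted p = 0.384 by limma). LLGL2, a polarity protein, was at 1.68 and 1.69 in SUM1315, at 12.9 and 13.7 in SKBR3 and at 6.63 and 6.46 in T47D (0.02 ± 0.13, adjusted p = 0.940 by limma).

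Between the luminal lines, 25.4% of the 12312 genes were higher and 30.8% lower in SKBR3, and of the 34 tested genes 17 were higher and 7 lower. All 7 tested keratins were among the 17, with CTNNA1 at 1.65 ± 0.17, EPCAM at 1.21 ± 0.27 and JUP at 1.17 ± 0.23 on the log2 scale (limma, adjusted p at most 0.00618). The 7 were CLDN1, MUC1 at -2.36 ± 0.17, ESRP1 at -1.83 ± 0.14, CLDN3 at -1.64 ± 0.17, CGN at -1.11 ± 0.12, ITGA6 and CTNNB1. KRT81, DSC2 and ITGA6 entered only through the line in which they were high. Without the SKBR3 hypoxia library 9 were higher, and KRT8 (0.73, adjusted p = 0.0982), KRT18 (0.60, 0.112) and KRT19 (0.85, 0.101) were not among them in limma's test.

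The 40 genes differ in coding length, which the choice did not use, and the oxygen change moved with it. Of the 31 tested genes the 5 with a coding sequence of 4500 bases or more, PPL, ITGB4, EVPL, DSP and PLEC, had a median log2 change of 0.70, with 5 of 5 above 0. By line their median was 0.02 in SUM1315, 1.23 in SKBR3 and 0.73 in T47D. All genes of that length had 0.13, 0.09 and 0.17. DSP, EVPL and ITGB4 were at 0.0407 RPKM or less in SUM1315. The 11 with a coding sequence under 1500 bases, which take in the claudins and most keratins, had a median of -0.21, with 4 above 0, which were KRT7, KRT18, KRT19 and KRT86. Over all genes tested the medians went the same way over a smaller span, -0.07 for 5561 genes under 1500 bases and 0.15 for 346 genes of 4500 bases or more, with 40.4% and 76.3% above 0. Calls of a rise made up 2.93% of the short and 7.23% of the long genes. Across genes Spearman's rho of length and change was 0.55 for the 31 genes and 0.16 for 9464 genes, values that share the same 6 libraries and are not independent. The part of coding length in the calls of DSP, PLEC and PPL was not tested.

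**Figure D4:**
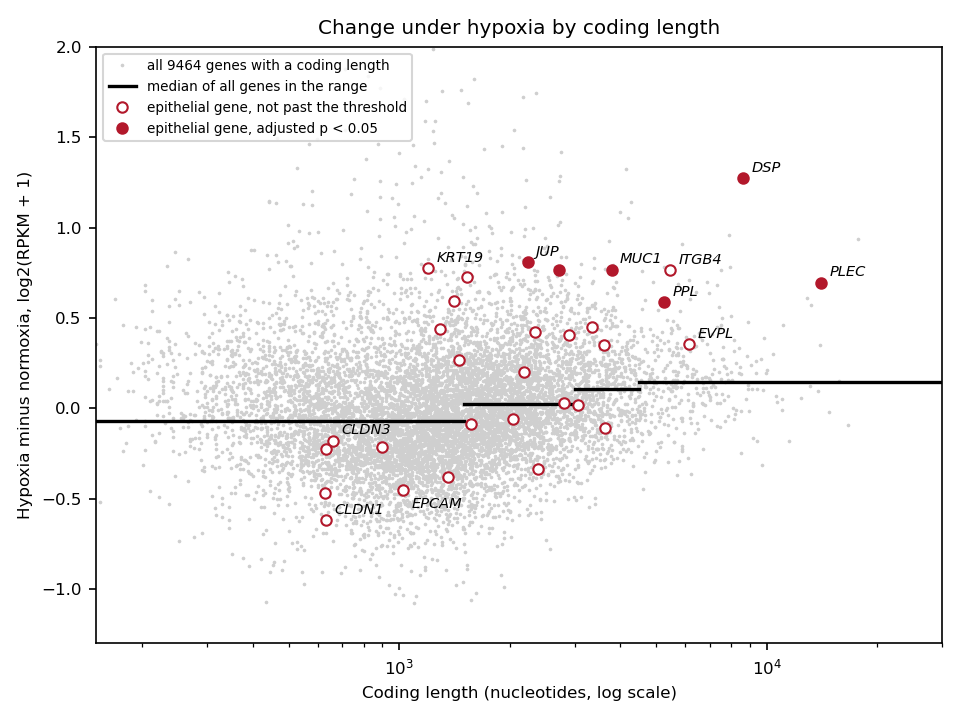
Log2 change at 1% against 21% oxygen against coding length (bases, log scale) for the tested genes, with the 31 genes marked and all others in grey, of which 17 lie outside the axes. The claudins sit at the short end below 0 and DSP, PLEC, ITGB4, PPL and EVPL at the long end above 0.

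A wider list held 68 further epithelial symbols. Of these 65 were in the table and 43 were tested for oxygen, and 2 (4.65%, near the 4.12% of all genes) were higher and 0 lower by limma, with 8 higher and 6 lower at an unadjusted p under 0.05 and a median of 0.02. The 2 were VCL, which encodes vinculin of the adherens junction and rose by 0.56 ± 0.12 (adjusted p = 0.0312), and CRB3, a polarity protein, by 0.57 ± 0.14 (adjusted p = 0.0407). In SUM1315 against the luminal lines 35 of 50 were lower and 8 higher, where 30.4% and 44.0% of all genes were. Many of the 35, among them GRHL2, OVOL1, RAB25 and CD24, were under 1 RPKM in both SUM1315 libraries. Those entered through the luminal libraries and had to differ, so this count too is a description. GRHL2, an epithelial transcription factor, was at 0.0305 and 0.0225 RPKM in SUM1315, at 2.58 and 2.62 in SKBR3 and at 7.46 and 9.95 in T47D. ZEB1, a repressor of epithelial genes, was at 2.25 and 2.58 in SUM1315 and at most at 0.0320 in the luminal libraries.

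Promoter sequence was available for 20 of the 40 genes from RefSeq (GRCh38.p14), as the 250 bases before the most upstream RefSeq start, searched on both strands. The HIF core letters ACGTG were in 4 of 20 (20%) and in 18.6% of 27305 promoters, and GCGTG in 7 (35%) and in 31.9%. CAGGTG, the E-box letters of ZEB and SNAI factors, was in 8 of 20 (40%), DSP, MUC1, DSC2, DSG2, ITGA6, KRT5, OCLN and TJP1, and in 17.5% of all promoters. A match is a description of these letters and not a binding site. Printed here are the promoters of DSP, the gene among the 40 with the largest rise, and of MUC1, with the lowest adjusted p. Also printed are those of CLDN3 and CLDN7, a pair of claudins below 0 in each line that hold ACGTG or GCGTG. Each ends before the first base that a GENCODE exon covers, which leaves 154 of the 250 bases for DSP and 249 for MUC1, and the CLDN7 stretch, before the RefSeq start, lies in an intron of a longer GENCODE transcript. They read 5′ to 3′ on the gene's strand, and capitals mark CAGGTG or its reverse complement CACCTG in DSP and MUC1, and ACGTG or GCGTG or their reverse complements in the claudins.
DSP promoter (chr6:7541421-7541574, plus strand): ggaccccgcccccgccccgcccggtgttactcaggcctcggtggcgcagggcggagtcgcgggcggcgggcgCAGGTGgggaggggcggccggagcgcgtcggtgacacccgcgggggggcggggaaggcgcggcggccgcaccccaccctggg
MUC1 promoter (chr1:155192917-155193165, minus strand): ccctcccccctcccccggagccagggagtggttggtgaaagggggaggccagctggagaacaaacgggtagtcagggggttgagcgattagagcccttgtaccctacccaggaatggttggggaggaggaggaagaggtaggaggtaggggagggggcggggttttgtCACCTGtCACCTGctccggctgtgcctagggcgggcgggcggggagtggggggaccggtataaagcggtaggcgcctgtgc
CLDN3 promoter (chr7:73770271-73770520, minus strand): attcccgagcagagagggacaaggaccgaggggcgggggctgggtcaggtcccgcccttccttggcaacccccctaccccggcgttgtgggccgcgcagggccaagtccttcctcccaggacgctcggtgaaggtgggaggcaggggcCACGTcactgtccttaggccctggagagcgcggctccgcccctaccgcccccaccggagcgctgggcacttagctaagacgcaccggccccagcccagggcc
CLDN7 promoter (chr17:7263214-7263463, minus strand): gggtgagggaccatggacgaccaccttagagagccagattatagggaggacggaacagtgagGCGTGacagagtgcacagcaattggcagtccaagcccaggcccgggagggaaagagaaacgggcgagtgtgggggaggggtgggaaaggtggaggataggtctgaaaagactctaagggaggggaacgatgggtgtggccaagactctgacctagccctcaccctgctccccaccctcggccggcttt
Neither DSP nor MUC1 holds ACGTG or GCGTG in the printed stretch, while MUC1 holds 2 copies of CACCTG a base apart. CLDN1 and CLDN4, not printed, were also below 0 in each line, with larger mean changes than the printed claudins. CLDN1 holds GCGTG, and CLDN4 (-0.47 ± 0.16 by limma) holds none of the letters searched. Of the genes that rose and had a promoter, JUP and CTNNA1 hold ACGTG or GCGTG, as do CLDN1, CLDN3, CLDN7, CGN, PKP4 and TJP3, which did not pass over the 3 lines, and ITGA6 and TJP1, which were not tested.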

How the data were processed

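Polysome RNA-seq values came as 1 table deposited by the authors and were taken as RPKM, scaled to library size. The unit was read from the values, since value times transcript length fell on whole steps in 60.0% to 62.7% of single-transcript genes (tolerance 0.02 of a step, 4% by chance). Per the submitters' processing notes, the tools were Partek, Trimmomatic, SAMtools and HISAT2, on GRCh38 (hg38). Not given in the sources used here: annotation, strand setting and if 1 step stands for a read or a pair.

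Deposited values were log-transformed as log2(RPKM + 1) and tested unscaled with limma 3.58.1 under R 4.3.3 (mean-variance trend, two-sided, Benjamini-Hochberg over all genes tested). A fold on this scale understates changes of low genes. The cell line was the block of the oxygen test, as the labels pair libraries by line: both libraries of a line deviated together from the oxygen group means, with correlations of 0.97 (SUM1315), 0.94 (SKBR3) and 0.94 (T47D). Within a line there is no replicate, so that ratios of its libraries carry no test. Nothing says that libraries came from separate cultures, and p-values measure the spread between these samples together with that of other genes. The oxygen test had 2 residual degrees of freedom beside 8.02 prior ones, and the line tests 2 beside 5.72. Gene models, coding lengths and shared 50-base windows came from GENCODE release 29. Alternatives were the pseudocount, the filter, centring, quantile normalization, trend, robust moderation, the block and leaving out libraries. When a line was left out of the oxygen test, the filter was 1 RPKM in at least 2 of the libraries left.

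The members and lists were chosen with earlier results of these data known. All 40 members are accounted for, with values per library for members called, highest in a line or under 1 RPKM in a line. Coding length and the difference of oxygen change between lines were added after the data were seen. The fits were tested on simulated data.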

Additional observations from a re-analysis of the deposited data

Results flagged for a closer look

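The log2(RPKM + 1) change of DSP was 0.02 for SUM1315, 1.94 for SKBR3 and 1.86 for T47D, a difference of -1.87 between SUM1315 and the luminal mean. This is given as a value only: DSP entered the fit through the luminal libraries, and at under 0.05 RPKM in both SUM1315 libraries a pseudocount of 1 holds its change there near 0. An oxygen effect on DSP in SUM1315 was not detectable at this depth.

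F11R went opposite ways in the luminal lines, with a log2 ratio of 0.33 in SKBR3 and -0.77 in T47D, a gap of 1.10. With 1 library per line and oxygen level this gap was not tested.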

How the results depend on the processing

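At an adjusted p under 0.05 by limma, the oxygen test called 6 members higher and 0 lower. The count of members higher was 0 with a pseudocount of 5 (15 at an unadjusted p under 0.05), 0 with no filter (8 unadjusted), 2 with 1 RPKM in at least 2 libraries, 3 with median centring and 2 with quantile normalization, and 1 to 10 when 1 line was left out. Members lower were 1 with a pseudocount of 0.1 (CLDN1) and 0 to 1 when 1 line was left out. With no replicate block, pairing ignored, 0 members and 0 genes were called in either direction (0 members and 68 genes at an unadjusted p under 0.05). Over all genes 422 higher and 232 lower became 171 and 72 with a pseudocount of 5, 0 and 0 with no filter (2715 unadjusted), 209 and 67 with 1 RPKM in at least 2 libraries, and 183 to 521 and 54 to 218 when 1 line was left out. Of members higher in SKBR3 than in T47D, 17 became 9 with no filter and 9 to 17 when 1 library was left out, and genes higher in SUM1315 were 3404 to 5427 then.

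Some signs turned. In the oxygen test, when 1 line was left out, LLGL2 ranged from -0.012 to 0.044 and TJP3 from -0.054 to 0.10, both lowest without SKBR3, and F11R from -0.49 to 0.062, highest without T47D. For SUM1315 against the luminal lines, OCLN was -0.016 with median centring, -0.022 with quantile normalization and -0.012 against SKBR3 only, CGN 0.075 and CLDN1 1.18 against SKBR3 only, and CTNNA1 0.12 against T47D only, where the luminal mean had given calls of -0.48, -2.33 and -0.71. For SKBR3 against T47D, with 1 library left out, F11R ranged from -0.36 to 0.47, ITGB4 from -0.14 to 0.82, DSP from -0.83 to 0.17, ESRP2 from -0.36 to 0.020, and CLDN4 from -0.077 to 0.39. Of the other values of single members, 321 kept direction and side of the threshold in the oxygen test, with 41 calls lost and 6 gained. The cause was not tested. At 21.7 to 33.4 reads per RPKM and kb, members near 0 rest on few reads.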
